A study of Mus musculus with 2 samples.

Results

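Primitive erythroblasts, the cells named EryP in the deposited cell table, made up 288 of the 10537 cells kept from fetal liver (2.73%, exact Clopper-Pearson 95% interval 2.43 to 3.06). Library 1 held 170 of them among 5480 cells (3.10%, 2.66 to 3.60) and library 2 held 118 among 5057 (2.33%, 1.94 to 2.79). The cells came from 1 wild-type C57BL/6 (C57BL/6J in the study's methods) mouse embryo at E12.5, whose liver was dissociated, sorted to remove debris, dead cells and doublets, and encapsulated as 2 technical replicates on the Chromium system, which counts unique molecular identifiers (UMIs) per gene and cell. No allele or agent was added, and every group below shares this background. EryP cells were chosen by their deposited name alone and were compared, within each library, with definitive erythroblasts (named Eryb in the table; 3820 and 3612 cells), and where stated with the Eryb clusters Ery 5 and Ery 6, which carried the most globin. With 1 liver there is no replicate of a condition, so no test between groups was possible. The technical replicates are not separate animals. Ratios between EryP and Eryb describe clusters that were made from these same counts, and the 95% intervals cover counting error only.

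Primitive erythroid cells are born in the yolk sac, enter the circulation as nucleated cells and mature there as a nearly synchronous cohort, whereas definitive erythroblasts mature in the fetal liver around macrophages and lose their nucleus before they leave. Primitive cells build embryonic hemoglobins from the zeta chain (Hba-x) and the beta-like chains epsilon-y (Hbb-y) and beta-H1 (Hbb-bh1), and definitive cells use the adult alpha (Hba-a1, Hba-a2) and beta (Hbb-bs, Hbb-bt) chains. As primitive cells mature, zeta gives way to alpha and beta-H1 to epsilon-y.

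The 3 genes that mark the type were present in nearly every cell so named. UMIs of Hba-x, Hbb-bh1 and Hbb-y were all present in 169 of 170 EryP cells of library 1 and in 118 of 118 of library 2, and in 840 of 3820 and 720 of 3612 Eryb cells. These genes supplied over 50% of a cell's globin UMIs in 167 of 170 and 107 of 118 EryP cells, against 2 of 3820 and 1 of 3612 Eryb cells. The 3 genes mark the type, so these values describe it and test nothing.

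The libraries stood apart before any comparison. EryP cells held a median of 5633 UMIs and 555.5 genes in library 1 and of 7160.5 UMIs and 530.5 genes in library 2, and in total 958118 and 965527 UMIs. The shallowest kept cell of any type had 504 UMIs in library 1 and 4387 in library 2, so 45 EryP cells of library 1 lay under the depth at which library 2 began. Adult globin levels of EryP cells in counts per 1000000 of all UMIs (CPM) were 2.25-fold higher in library 2 than in library 1 for Hba-a1, 2.56-fold for Hba-a2, 2.13-fold for Hbb-bs and 2.04-fold for Hbb-bt. In counts per 1000000 of the UMIs that are not globin (non-globin CPM), the same 4 ratios were 3.002, 3.42, 2.84 and 2.72, while Hba-x, Hbb-bh1 and Hbb-y had ratios of 1.15, 1.15 and 1.03. Eryb cells of library 2 also had more adult globin than those of library 1, with ratios on the non-globin scale of 2.98 for Hba-a1 and 2.24 for Hbb-bs. Without the 14 EryP cells of mostly adult globin described next, the ratio in CPM was 2.27 for Hba-a1 and 2.53 for Hba-a2, but 0.990 for Hbb-bs and 1.64 for Hbb-bt (1.37 and 2.27 in non-globin CPM). The libraries came from the same liver, and what set the adult globins apart was not tested. Of the kept barcodes, 31 occurred in both libraries, of which 1 was an EryP cell in one of them, and 0 were named EryP in both.

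A few EryP cells went against their name. In library 2, 11 of 118 cells drew between 14.0% and 43.2% of their globin UMIs from the embryonic genes. These 11 cells held 10463 to 22529 UMIs, all above the EryP median of 7160.5, and a pooled 58.1% of their beta-like UMIs came from Hbb-bs and Hbb-bt, against 11.3% in the other 107. In library 1, 3 of 170 cells were of this kind, with 32.8% to 46.5% embryonic globin. Another cell of library 1, with 62.7% embryonic globin, had no Hbb-y UMI among 2274 UMIs, drew 13.8% of its UMIs from globin and held 1120 genes. No doublet caller was run here. The part of cell pairs in these cells was not tested, and the counts of called genes below are also given without the 14 cells of mostly adult globin where they change, as are levels that move by more than 1.5-fold.

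Globin genes lie in a cluster on chromosome 11 (alpha-like) and another on chromosome 7 (beta-like), in the GRCm38 build that the files use. Hba-x spans chr11:32276400-32278116 and lies before Hba-a1 (chr11:32283511-32284465). Hbb-bh1 (chr7:103841637-103843164) lies between Hbb-y (chr7:103851749-103853216) and the adult genes Hbb-bs (chr7:103826534-103828096) and Hbb-bt (chr7:103812524-103813996). The 150 bases before the RefSeq start of 5 of these genes are printed because the embryonic and adult members of each cluster moved apart in EryP cells. Sequences are from RefSeq on GRCm38.p6, 5′ to 3′ on the gene's own strand, and capitals mark matches, on either strand, to the 4 motifs spelled out after them.
Hba-x (chr11:32276450-32276599, plus strand): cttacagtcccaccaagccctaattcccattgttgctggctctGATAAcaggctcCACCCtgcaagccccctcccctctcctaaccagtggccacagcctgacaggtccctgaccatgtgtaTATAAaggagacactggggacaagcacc
Hbb-y (chr7:103853208-103853357, minus strand): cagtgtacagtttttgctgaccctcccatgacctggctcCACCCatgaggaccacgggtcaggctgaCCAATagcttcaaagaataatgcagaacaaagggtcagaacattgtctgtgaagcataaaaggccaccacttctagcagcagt
Hba-a1 (chr11:32283522-32283671, plus strand): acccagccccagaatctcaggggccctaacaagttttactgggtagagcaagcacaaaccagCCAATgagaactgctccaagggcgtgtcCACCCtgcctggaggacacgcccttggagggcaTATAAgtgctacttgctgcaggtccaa
Hbb-bs (chr7:103827929-103828078, minus strand): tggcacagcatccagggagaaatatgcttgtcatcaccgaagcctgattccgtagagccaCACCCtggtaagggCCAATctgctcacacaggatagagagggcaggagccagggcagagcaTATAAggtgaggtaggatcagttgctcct
Hbb-bt (chr7:103813924-103814073, minus strand): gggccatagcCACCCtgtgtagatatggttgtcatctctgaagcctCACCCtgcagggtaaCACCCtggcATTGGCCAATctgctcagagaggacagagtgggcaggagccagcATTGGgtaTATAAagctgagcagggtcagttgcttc
The letters CACCC, read by the erythroid factor Klf1 and its relatives, occurred in all 5 windows, beginning 95 bases before the start of Hba-x, 111 before that of Hbb-y, 60 before that of Hba-a1 and 90 before that of Hbb-bs, and at 3 places in Hbb-bt. Across all 32851 windows of this length in the table, 37.4% held them. CCAAT stood in the windows of Hbb-y, Hba-a1, Hbb-bs and Hbb-bt, and in 24.5% of all windows. GATAA, within the motif that Gata1 reads, stood only in the Hba-x window among these 5, beginning 107 bases before the start, and in 13.3% of all windows. TATAA began 28 bases before the start of Hba-x, 27 before that of Hba-a1, 29 before that of Hbb-bs and 28 before that of Hbb-bt, and stood in 14.2% of all windows. Matches were sought on both strands, and those in these 5 windows lay on the gene's own strand except 2 of the 3 CCAAT matches of Hbb-bt. A match is a string of letters and does not show binding. Hba-a2 was left out of the print as a near copy of Hba-a1.

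Globin transcripts filled EryP cells. They made up a median of 79.6% of a cell's UMIs in library 1 and 84.2% in library 2, with 68.5% to 84.1% and 75.9% to 89.0% between the 10th and 90th percentiles. Eryb cells held medians of 43.7% and 67.2%, and Ery 6, the most globin-rich Eryb cluster, 58.2% and 79.2%. The EryP median lay above that of Ery 6 in both libraries, with overlapping ranges of single cells. UMIs without globin were fewer, with a median of 1139 and 1145 per EryP cell against 3060.5 and 2961.5 per Eryb cell.

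Epsilon-y was the leading transcript of EryP cells. Hbb-y took 52.8% of all EryP UMIs in library 1 and 40.6% in library 2, and 0.0971% and 0.0759% of Eryb UMIs. Hba-x, the zeta chain, took 6.19% and 5.36% of EryP UMIs, and 0.0119% and 0.0110% of Eryb UMIs. Hbb-bh1 took 2.58% and 2.23% of EryP UMIs, and 0.513% and 0.331% of Eryb UMIs. Both libraries thus gave the same order of the 3 genes in EryP cells, by share of UMIs, which are counted per molecule and not divided by length. In non-globin CPM, EryP levels exceeded Eryb levels 1477-fold and 1251-fold for Hbb-y, 1418-fold and 1138-fold for Hba-x, and 13.7-fold and 15.8-fold for Hbb-bh1. The Eryb levels of Hbb-y and Hba-x in these ratios lay below those of free RNA, described below. Hbb-y UMIs outnumbered those of Hbb-bh1 20.4 to 1 and 18.2 to 1 in EryP cells, and in Eryb cells the ratio was 0.189 and 0.229.

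**Figure D1:**
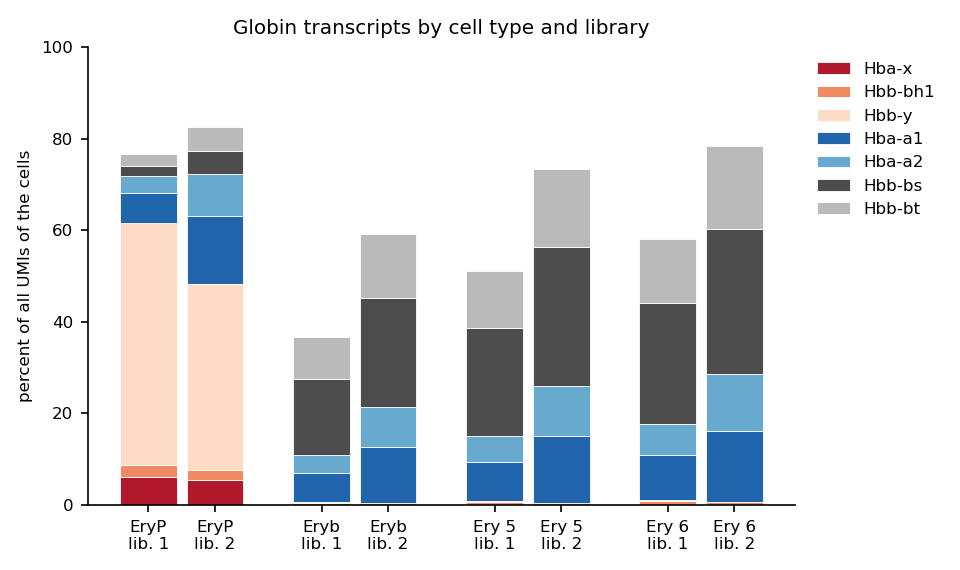
Stacked bars give the percent of all UMIs of the cells that came from each of 7 globin genes (vertical axis), for EryP, Eryb and the Eryb clusters Ery 5 and Ery 6 in each library (horizontal axis, lib. 1 and lib. 2). Hbb-y took 52.8% and 40.6% of EryP UMIs, and the adult genes took a larger share in library 2 than in library 1 in every group drawn.

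Adult alpha globin was abundant in EryP cells, and adult beta globin less so. Hba-a1 took 6.62% of EryP UMIs in library 1 and 14.9% in library 2, against 6.36% and 12.2% of Eryb UMIs. Hba-a2 took 3.57% and 9.16% of EryP UMIs, against 4.01% and 8.73%. In non-globin CPM, by contrast, Hba-a1 was 2.83-fold and 2.85-fold and Hba-a2 2.42-fold and 2.45-fold higher in EryP than in Eryb cells, and the ratios to Ery 5 and Ery 6 were 1.34 and 1.31 for Hba-a1 and 1.06 and 1.03 for Hba-a2. Hbb-bs took 2.32% and 4.93% of EryP UMIs, against 16.6% and 23.9%, and Hbb-bt took 2.62% and 5.35%, against 9.13% and 14.0%. In library 2, the 11 cells of mostly adult globin held 66.8% of the Hbb-bs and 37.6% of the Hbb-bt UMIs of EryP cells, and in library 1 the 3 such cells held 15.3% and 7.85%. Without these cells, Hbb-bs took 2.02% and 1.99% of EryP UMIs and Hbb-bt 2.48% and 4.06%. The adult alpha pair and the adult beta pair are near-identical copies, so the split within a pair is uncertain. Adult alpha UMIs outnumbered adult beta UMIs 2.06 to 1 and 2.34 to 1 in EryP cells, while the ratio was 0.404 and 0.553 in Eryb cells. Without the 14 cells, the EryP ratio was 2.25 and 3.94. Hbq1b, a minor alpha-like globin, stood at 139 and 62.1 CPM in EryP cells against 258 and 75.7, but in non-globin CPM at 596 and 356 against 408 and 186. The zeta share of alpha-like UMIs was 37.8% and 18.2% in EryP cells, and the adult share of beta-like UMIs was 8.19% and 19.3%; without the 14 cells these were 38.4% and 20.01%, and 7.40% and 11.3%.

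Free RNA, read from the barcodes with 1 to 50 UMIs, had another make-up. Its adult alpha to adult beta ratio was 0.419 in library 1 and 0.457 in library 2, near that of Eryb and below that of EryP cells. Had every Hbb-bs UMI of EryP cells come from free RNA, that would have brought 8689 and 19900 CPM of Hba-a1, where EryP cells held 66184 and 148884. The embryonic genes made up 7.31% and 3.56% of globin UMIs in free RNA. Free RNA held Hbb-y at 11531 and 10355 CPM, where Eryb cells held 971 and 759. For Hba-x the levels were 1003 and 1059 in free RNA and 119 and 110 in Eryb cells. How much of these Eryb levels, and so of the ratios resting on them, came from free RNA was not tested. At a free RNA share of 10%, free RNA would supply 38.3% and 34.0% of the Hbb-bs UMIs of EryP cells, but 5.03% and 4.54% of their Hba-a1 UMIs and 0.218% and 0.255% of their Hbb-y UMIs. Globin made up 20.9% and 39.3% of free RNA UMIs, but 76.7% and 82.5% of pooled EryP UMIs. The same share would thus weigh more on the non-globin UMIs of EryP cells than on their globin UMIs as a whole. Its part in the non-globin levels below was not tested.

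The embryonic share of globin UMIs was tight within a library and differed between the 2 libraries. In library 1 the single cells ran from 32.8% through a median of 82.2% to 88.7%, and in library 2 from 14.0% through 63.9% to 74.3%. The 10th to 90th percentiles, 77.7% to 86.0% and 54.8% to 69.7%, did not overlap. Eryb medians were 0.361% and 0.109%. Among Eryb cells, 367 of 3820 and 93 of 3612 had over 5% and up to 50%, and Hbb-bh1 supplied 96.9% and 78.9% of the embryonic UMIs of those cells. The pattern of these Eryb cells, with 0.0274 and 0.235 Hbb-y UMIs per Hbb-bh1 UMI, was thus unlike that of EryP cells.

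**Figure D2:**
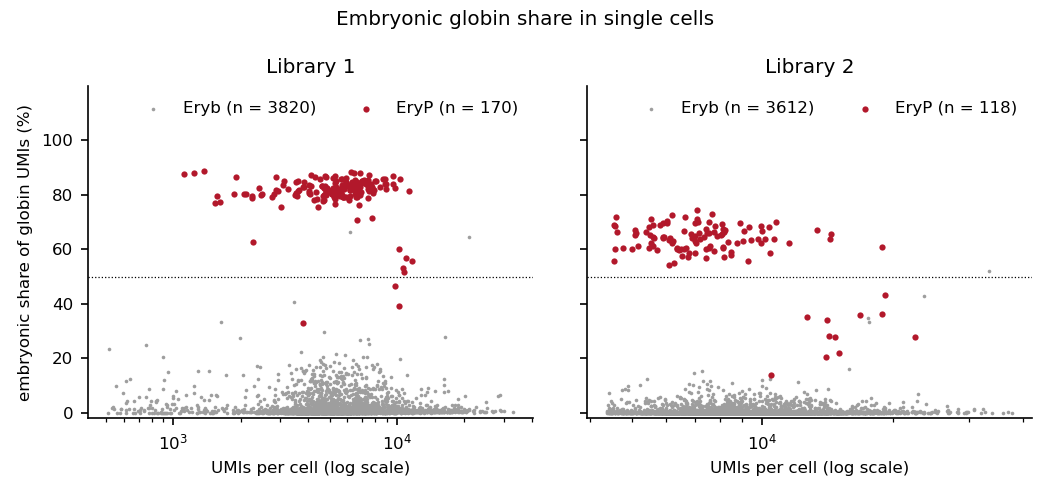
Each point is a cell, placed by its UMIs (horizontal axis, log scale) and by the percent of its globin UMIs that came from Hba-x, Hbb-bh1 and Hbb-y (vertical axis), in EryP (red) and Eryb (grey) cells of each library. EryP cells form a band around 82.2% in library 1 and 63.9% in library 2, and the 11 EryP cells of library 2 under the dotted line at 50% lie at 10463 UMIs or more.

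Single EryP cells differed in their alpha-like and beta-like make-up by more than counting. The zeta share of alpha-like UMIs ranged from 7.63% through a median of 36.7% to 70.4% in library 1, with a standard deviation of 11.7 percentage points where counting alone gives 1.80. In library 2 it ranged from 4.11% through 19.2% to 34.6%, with 7.55 against 0.851 points. Cells with more globin had a smaller zeta share. Ordered by globin share and cut into 3 equal groups, the cells with the least globin had 41.6% zeta in library 1 and 20.5% in library 2, the middle group 39.9% and 18.8%, and the cells with the most globin 31.2% and 14.9%. The beta-H1 share of beta-like UMIs fell across the same groups from 5.07% through 4.59% to 3.16% in library 1 and from 4.91% through 4.07% to 3.43% in library 2. Across cells, Spearman's coefficient between globin share and zeta share was -0.47 over 170 cells and -0.51 over 118. Without the cells of mostly adult globin it was -0.53 over 167 and -0.74 over 107. Pearson's r between the same shares was -0.11 and -0.47 over all EryP cells and -0.24 and -0.71 without them. Zeta share and beta-H1 share, which rest on separate UMIs, had a Spearman's coefficient of 0.49 and 0.53 and a Pearson's r of 0.067 and 0.53. In library 1, the cell without Hbb-y lay far from all others, with 87.8% of its beta-like UMIs from Hbb-bh1. These are descriptions, given without a test, over cells that share a library and its free RNA, and alpha-like UMIs are part of the globin share. Between a cell's UMIs and its zeta share, Spearman's coefficient was 0.16 and -0.13.

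**Figure D3:**
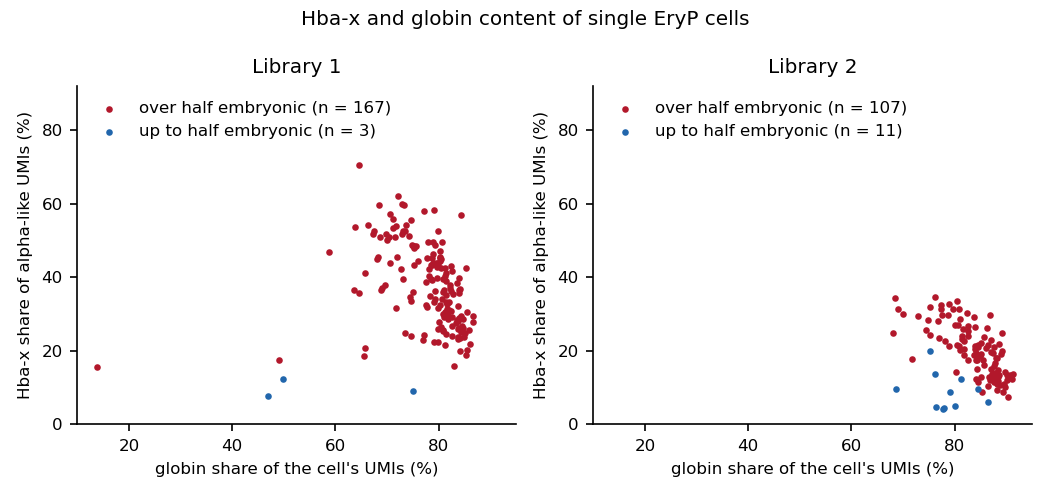
Each point is an EryP cell, placed by the percent of its UMIs that came from globin genes (horizontal axis) and by the percent of its alpha-like UMIs that came from Hba-x (vertical axis), in red where over 50% of its globin UMIs were embryonic and in blue otherwise. The zeta share is lower in cells with more globin in both libraries, and the whole cloud lies lower in library 2, where its median is 19.2% against 36.7%.

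EryP cells held fewer kinds of transcript than Eryb cells at the same depth. After thinning every cell to 3600 UMIs, 141 and 118 EryP cells had medians of 418 and 331.5 genes, and 3365 and 3612 Eryb cells had 954 and 643. Unthinned, the medians were 555.5 and 530.5 against 1235.5 and 1184.5. Ery 6 cells at 3600 UMIs had 676 and 419 genes, also above EryP. With globin left out and the rest thinned to 620 UMIs, a lower depth, the medians were 356 and 354 genes in EryP cells, 392 and 390 in Eryb cells and 360 and 361 in Ery 6 cells. The shares of globin and of depth in that smaller gap were not separated.

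The number of genes called in each direction depended on whether globin UMIs were in the total. Globin genes counted among the 2241 genes with a mean of at least 20 CPM over the 4 sums of cells. Of these, 41 were at least 2-fold higher in EryP than in Eryb in both libraries (1.83%), the 3 embryonic globins among them. Another 1628 were at least 2-fold lower (72.6%), 2 adult globins among them, and the median log2 ratio was -1.80 and -1.57. Levels are therefore given below in non-globin CPM, unless another scale is named, which raises the ratio of every gene by the same factor within a library. On this scale 147 of 2233 genes were at least 2-fold higher in both libraries (6.58%) and 367 at least 2-fold lower (16.4%), and the median log2 ratio was -0.36 and -0.35. A gene is called higher or lower below by that rule, and the percentages are the background for each list. Without the 14 cells of mostly adult globin, 156 genes were higher (6.99%) and 457 lower (20.5%), among them 143 of the 147 and 353 of the 367. Against Ery 5 and Ery 6, 167 genes were higher (7.48%) and 332 lower (14.9%), of which 71 and 186 were shared with the calls against all Eryb cells. The filter stayed in CPM over all UMIs, where globin lowers the level of other genes more in EryP than in Eryb cells. Genes high in Eryb cells thus passed it more easily, and the counts and background percentages lean toward lower genes. The members of each list passed this filter through either cell type, so a count of called members is given beside the background and supports nothing by itself.

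**Figure D4:**
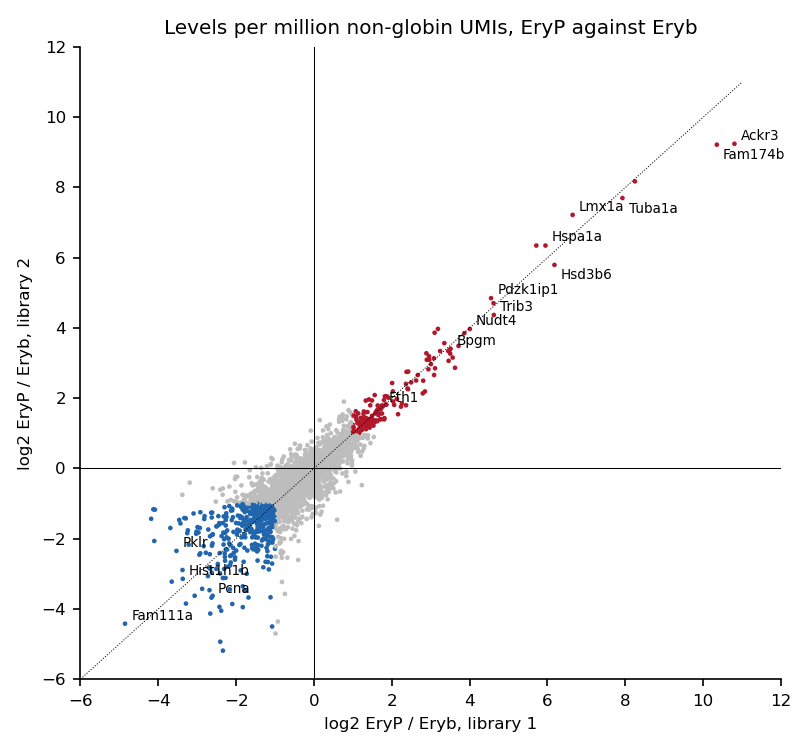
Each point is 1 of 2233 genes, placed by its log2 ratio of EryP to Eryb in non-globin CPM in library 1 (horizontal axis) and library 2 (vertical axis). Genes called higher in both libraries are red (147), genes called lower are blue (367), the others grey, and the dotted line marks equal ratios; Ackr3 and Fam174b lie farthest to the upper right.

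Outside globin and the gene lists, the genes with the highest ratios ranged from some close to 0 in Eryb cells, such as Ackr3, to Nudt4, which most Eryb cells also held. All 9 described here were also at least 2-fold higher in both libraries in CPM over all UMIs. Ackr3, a scavenging receptor for the chemokine Cxcl12, stood at 699 and 712 non-globin CPM in EryP cells and at 0.391 and 1.17 in Eryb cells. These levels rest on 156 and 120 EryP UMIs and on 6 and 17 Eryb UMIs, a ratio of 1788 (803 to 4947) in library 1 and of 606 (363 to 1075) in library 2. Thinned to 3600 UMIs, 40.4% and 38.1% of EryP cells and 0.119% and 0.0554% of Eryb cells had an Ackr3 UMI; unthinned, 48.8% and 56.8% against 0.157% and 0.277%. In every other cell type of the table, Ackr3 stayed at or under 7.87. Fam174b, a membrane protein, stood at 681 and 659 against 0.521 and 1.11, and at 142 and 81.1 in endothelial cells.

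A transcription factor gene was among this set. Lmx1a, a LIM homeodomain factor best known from the developing midbrain, stood at 372 and 350 against 3.71 and 2.35, with UMIs in 63 of 170 and 40 of 118 EryP cells. Lmx1a stayed at or under 1.32 in every cell type other than the erythroid ones.

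Enzymes and structural genes made up the rest of the genes with the highest ratios. Tuba1a, an alpha-tubulin, stood at 887 and 1163 against 3.65 and 5.60; endothelial cells held it at 464 and 849, and its close relatives could take some of its reads. Hsd3b6, a 3-beta-hydroxysteroid dehydrogenase, stood at 3185 and 2759 against 44.0 and 49.7, and 73.0% and 66.9% of EryP cells had a UMI at 3600 UMIs, against 6.72% and 4.73% of Eryb cells; unthinned, the shares were 75.9% and 79.7% against 8.06% and 8.69%. Nudt4, a hydrolase of diphosphoinositol phosphates, was the most abundant of the set, with UMIs in 85.1% and 83.1% of Eryb cells, and stood at 10728 and 9498 against 668 and 606, a ratio of 16.1 (15.3 to 16.8) and 15.7 (14.9 to 16.5). Pdzk1ip1, a small membrane protein, stood at 2231 and 2515 against 95.2 and 87.3. Pus10, a pseudouridine synthase, had ratios of 24.5 and 26.1, and Utp6, a ribosome assembly factor, of 14.6 and 14.4. For all 9 genes, the level in EryP cells was also above that of Ery 5 and Ery 6, by 8.65-fold (Nudt4 in library 2) or more.

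Bpgm stood out among the genes of glycolysis. Its enzyme makes 2,3-bisphosphoglycerate, which lowers the oxygen affinity of adult hemoglobin. It stood at 4067 and 3583 in EryP cells and at 357 and 338 in Eryb cells, 11.4-fold (10.6 to 12.2) and 10.6-fold (9.73 to 11.5) higher. Against Ery 5 and Ery 6, it was 3.55-fold and 3.33-fold higher. Of the 12 members tested, 3 were called lower: Pklr, the red cell pyruvate kinase (22.4 and 41.5 against 259 and 212), Pfkl (35.8 and 41.5 against 128 and 93.8) and Tpi1 (143 and 107 against 373 and 369). In library 2, Pklr stood at 15.2 and Pfkl at 22.9 without the 11 cells of mostly adult globin. Gapdh stood at 1165 and 1222 against 1159 and 1399 and was not called. The median log2 ratio of the 12 genes was -0.37 and -0.30, close to that of all genes tested. In CPM over all UMIs, Bpgm was the only one called higher and 9 were lower, and relative to Ery 5 and Ery 6 only Bpgm was higher and only Pklr lower.

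Genes of DNA replication were low in EryP cells. Of 17 S phase genes tested, 15 were called lower and 0 higher, with a median log2 ratio of -2.27 and -2.60; in CPM over all UMIs all 17 were lower. Pcna, the sliding clamp of the replication fork, had 17 and 5 UMIs in all EryP cells together, or 76.2 and 29.7 non-globin CPM, against 473 and 380 in Eryb cells. Mcm3, of the replicative helicase, stood at 35.8 and 23.7 against 191 and 189. Uhrf1 (76.2 and 5.93 against 145 and 122) and Dut (188 and 59.3 against 335 and 322) were the 2 not called. Against Ery 5 and Ery 6, in which these genes were lower than in other Eryb cells, the median was -0.52 and -1.12, and 4 of the 17 were called lower. Summed, the list took 0.154% and 0.116% of non-globin UMIs in EryP cells, 0.620% and 0.584% in Eryb cells and 0.164% and 0.156% in Ery 6 cells.

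Genes of G2 and mitosis were low as well. Of 22 tested, 14 were called lower and 0 higher, with medians of -1.98 and -1.41, and all 22 were lower in CPM over all UMIs and relative to Ery 5 and Ery 6. Cdc20, an activator of the anaphase-promoting complex, stood at 40.3 and 65.3 against 257 and 249, and Aurka, a spindle kinase, at 35.8 and 83.1 against 274 and 269. Mki67 stood at 340 and 374 against 957 and 840. In library 2 without the 11 cells of mostly adult globin, Aurka stood at 30.5, on 4 of its 14 UMIs, and Mki67 at 221. The list summed to 0.519% and 0.685% of non-globin UMIs in EryP cells against 1.65% and 1.54% in Eryb cells. It summed to 3.64% and 3.34% in Ery 5 cells but to 1.03% and 0.948% in Ery 6 cells, so Ery 5 raised the pooled level of these 2 clusters. In EryP cells, Tubb4b, a tubulin used in all phases, was the most abundant member of the list. Without the 14 cells of mostly adult globin, the EryP sum was 0.490% and 0.376%, and all 22 were called lower. Within EryP cells, the group with the least globin held more of these UMIs than that with the most, 0.748% (0.698 to 0.800) against 0.306% (0.258 to 0.360) in library 1 and 1.05% (0.985 to 1.12) against 0.291% (0.234 to 0.357) in library 2. With only cells of over 50% embryonic globin, the same groups held 0.702% against 0.304% and 0.514% against 0.307%. The deposited phase names differed between the libraries and were not used. G2M was given to 115 of 170 EryP cells of library 1 and to 1 of 118 of library 2, and G1 to 40 and 110. Without Tubb4b, the group with the least globin held 0.651% and 0.892%, and that with the most 0.175% and 0.139%. With only cells of over 50% embryonic globin, these values were 0.606% and 0.423%, and 0.172% and 0.148%. The S phase and G2 and mitosis lists together had a median of 4.5 and 4 UMIs per EryP cell and 84.5 and 76 per Eryb cell.

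Genes that restrain division were mixed. Of 9 tested, 3 were called higher and 0 lower, whereas in CPM over all UMIs 2 were higher (Btg1 and Cited2) and 6 lower. Leaving out the 14 cells of mostly adult globin gave 3 higher and 3 lower. Btg1, an antiproliferative partner of the deadenylase complex, stood at 520 and 356 against 44.0 and 39.9. Cited2, a modulator of the coactivators CBP and p300, stood at 479 and 285 against 38.9 and 39.1, and Ypel3 at 1277 and 1157 against 381 and 334. Relative to Ery 5 and Ery 6, 2 were higher (Btg1 and Cited2) and 4 lower. Cdkn2d, a CDK inhibitor, stood at 215 and 397 against 609 and 548 and was not called, but was called lower without those cells (log2 ratio -1.47 and -1.58).

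**Figure D5:**
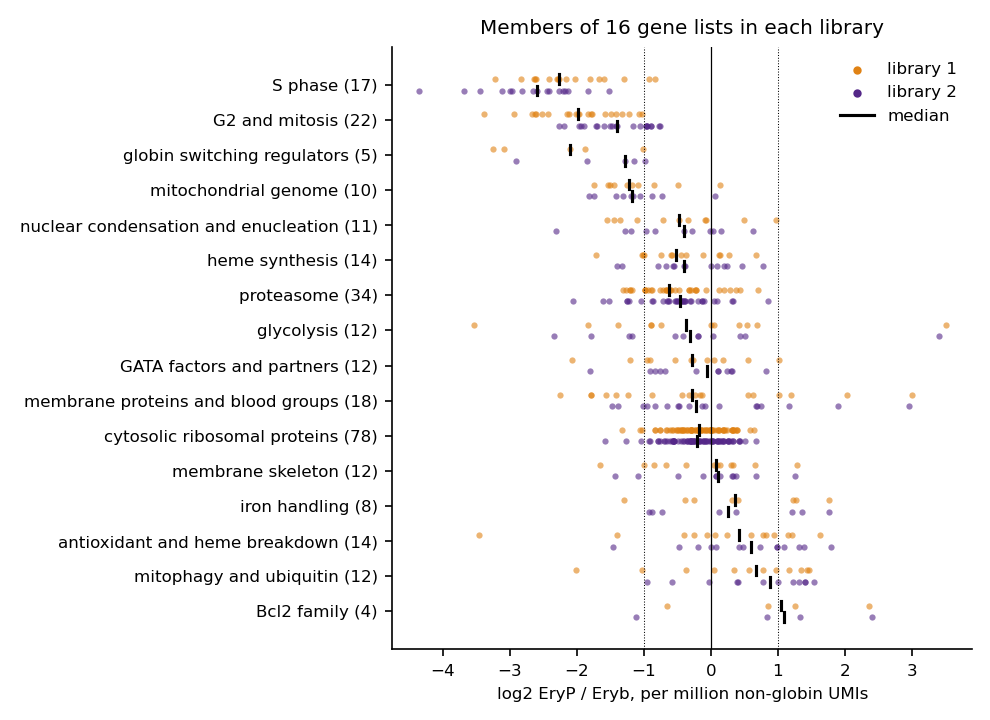
Each point is a gene of 1 of 16 lists (vertical axis, with the number tested in parentheses), placed by its log2 ratio of EryP to Eryb in non-globin CPM (horizontal axis) in library 1 (orange) or library 2 (purple); black bars are medians and dotted lines mark 2-fold. The S phase list lies lowest, with medians of -2.27 and -2.60, and the Bcl2 family, with 4 genes, highest.

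Few genes of the erythroid transcription network were called against all Eryb cells. Of 12 GATA factors and partners tested, 1 was called lower, E2f4 (139 and 142 against 583 and 499), and none higher. Gata1, the master factor of the lineage, stood at 175 and 190 against 337 and 321, and Tal1 at 461 and 469 against 408 and 376. The median log2 ratio was -0.28 and -0.054, and without the 14 cells of mostly adult globin 2 were lower. The median against Ery 5 and Ery 6 was -1.08 and -0.94, where 5 of the 12 were called lower, with Gata1 at 0.453 and 0.482 of their level and Klf1, described next, at 0.436 and 0.413, and in CPM over all UMIs 7 of the 12 were lower than in Eryb cells. Of the 5 regulators of globin switching tested, 4 were called lower. Bcl11a, which represses embryonic globin genes, had 2 and 5 UMIs in all EryP cells, or 8.96 and 29.7 against 76.5 and 72.3, and Sox6, its partner, stood at 17.9 and 47.5 against 171 and 170. Zbtb7a (49.3 and 107 against 211 and 236) and Dnmt1 (26.9 and 11.9 against 99.1 and 88.9) were the others, and Klf1 stood at 605 and 581 against 1215 and 1153, just short of a call in library 2. Bcl11a stood at 14.7 and 13.3 in Ery 5 and Ery 6, so its call did not hold there and EryP cells were at 0.610 of that level in library 1 and at 2.23 times that level in library 2, on 2 and 5 EryP UMIs (2 and 2 without the 14 cells). The Sox6 levels rest on 4 and 8 EryP UMIs, a ratio of 0.105 (0.0285 to 0.268) and 0.279 (0.120 to 0.550). In the cells with over 50% embryonic globin, Sox6 stood at 9.36 and 7.62, Zbtb7a at 51.5 and 61.0 and Dnmt1 at 28.1 and 7.62, and all 5 were called lower.

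Heme genes were called lower about as often as all genes tested, and both ferritin genes were called higher in non-globin CPM. Alas2, the first and rate-limiting enzyme of erythroid heme synthesis, stood at 5559 and 5731 in EryP cells against 3493 and 3320, and Fech, the last, at 2750 and 3251 against 2272 and 2347. Neither passed 2-fold. Of 14 heme genes, 2 were called lower and 0 higher, namely Tmem14c and Abcb6, which carry porphyrins, and the median was -0.51 and -0.39. In CPM over all UMIs 11 were lower, and without the 14 cells of mostly adult globin 3. The median against Ery 5 and Ery 6 was -1.01 and -0.87, where 5 were called lower, Abcb6 but not Tmem14c among them, with Alas2 at 0.711 and 0.747 and Fech at 0.599 and 0.672 of their level. Fth1, the ferritin heavy chain, was the most abundant transcript of EryP cells outside globin, at 61387 and 56068 against 18047 and 16534, a ratio of 3.40 (3.34 to 3.46) and 3.39 (3.32 to 3.46). Ftl1, the light chain, stood at 42533 and 36580 against 18062 and 15779, and Slc40a1, the iron exporter ferroportin, at 108 and 101 against 44.6 and 39.4. Tfrc, the transferrin receptor, stood at 309 and 380 against 763 and 698 and was not called in library 2, but without the 14 cells stood at 285 and 221 and was called lower. It was also the only iron gene called lower relative to Ery 5 and Ery 6, at 0.302 and 0.383 of their level. Of 8 iron genes, 3 were called higher and 0 lower, but in CPM over all UMIs 0 were higher and 4 lower, and without the 14 cells 3 were higher and 1 lower. Relative to Ery 5 and Ery 6, Fth1 was 2.59-fold and 2.48-fold and Slc40a1 2.04-fold and 2.09-fold higher, while Ftl1, at 1.67-fold and 1.59-fold, was not called. Both ferritin genes have processed copies elsewhere in the genome that can share reads.

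Surface genes split by member. Of 18 membrane proteins and blood group genes tested, 3 were called higher and 3 lower; in CPM over all UMIs only Cd59a remained higher, and 12 were lower. Leaving out the 14 cells gave 3 higher and 6 lower. Cd59a, an inhibitor of the complement membrane attack complex, stood at 1245 and 1228 against 155 and 157, 8.03-fold (7.07 to 9.10) and 7.83-fold (6.76 to 9.03) higher. Xk and Kel, which form the Kell complex, stood at 336 and 267 against 82.0 and 71.3, and at 887 and 878 against 439 and 391. Cd47, the signal that restrains phagocytes, stood at 264 and 457 against 1256 and 1190, and Cd24a at 2473 and 2913 against 8528 and 8078. The 11 cells of mostly adult globin carried most of both library 2 levels, and without them Cd47 stood at 91.4, on 12 of 77 UMIs, and Cd24a at 1067, on 140 of 491. Icam4, which binds integrins in erythroblastic islands, stood at 278 and 397 against 823 and 805. Itga4, an integrin chain that binds the macrophage ligand Vcam1, was the only tested gene of the island adhesion list, at 35.8 and 29.7 against 151 and 143, on 8 and 5 EryP UMIs, and was called lower; without the 11 cells it had 1 UMI in library 2. In the comparison with Ery 5 and Ery 6, 2 of the 18 were higher (Cd59a and Xk) and 8 lower, and Kel, at 1.13-fold and 1.18-fold, was not called. Slc4a1, the anion exchanger band 3, was not called, at 3194 and 3239 against 2178 and 1932. Of 12 membrane skeleton genes, Epb41 (protein 4.1) was called higher and Mpp1 lower, with Mpp1 in library 2 on 22 UMIs, of which 4 lay outside the 11 cells of mostly adult globin, and Sptb, a spectrin chain, had ratios of 1.23 and 1.26. With those cells left out, 1 of the 12 was higher and 2 lower, and in CPM over all UMIs 0 were higher and 7 lower. Epb41 stood at 1.06 and 1.004 of its level in Ery 5 and Ery 6 and was not called there, where 0 of the 12 were higher and 2 lower.

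Some genes for clearing mitochondria were called higher in non-globin CPM, and most transcripts of the mitochondrial genome lower. Of 12 genes of mitophagy and ubiquitin tested, 4 were called higher and 0 lower, with a median of 0.67 and 0.89, but in CPM over all UMIs 0 were higher and 3 lower, with a median of -0.77 and -0.33. Bnip3l, the receptor that marks mitochondria for removal in red cells, stood at 2477 and 1993 against 897 and 803, and Map1lc3b, an autophagosome protein, at 1312 and 1293 against 484 and 487. Rnf10 and Ube2o were the others. With the 14 cells of mostly adult globin left out, 5 were higher and 2 lower. Against Ery 5 and Ery 6, however, the list's median was -0.62 and -0.31, with 0 called higher and 2 lower. Of 10 mitochondrially encoded genes, 7 were called lower and 0 higher, with a median of -1.22 and -1.18, and in CPM over all UMIs all 10 were lower. None of the 7 was called lower relative to Ery 5 and Ery 6, where the median was -0.49 and -0.74 and mt-Nd1 stood at 0.918 and 0.591 of their level. mt-Nd1 stood at 1890 and 1412 against 5351 and 4972, and mt-Co1 at 7499 and 5844 against 6810 and 5591, so members of the list differed. Summed, the list took 2.53% and 2.19% of non-globin UMIs against 4.70% and 4.42%, and a median of 16 UMIs per EryP cell in each library against 132 and 124. In CPM over all UMIs, free RNA held the list at 41962 and 40517, and EryP cells at 5888 and 3831. The part of free RNA in the EryP level was not tested.

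Ribosomal protein genes took a larger share of non-globin UMIs in EryP cells than in late Eryb cells. Of 78 tested, 0 were called higher and 2 lower against Eryb (Rpl22l1 and Rpl3), with a median of -0.17 and -0.20, but in CPM over all UMIs 66 were lower. Against Ery 5 and Ery 6, the median was 1.12 and 1.04, with 39 called higher and 0 lower. The list took 14.7% and 17.3% of non-globin UMIs in EryP cells, 16.3% and 19.4% in all Eryb cells and 6.63% and 8.13% in Ery 5 and Ery 6 cells. In CPM over all UMIs, free RNA held the list at 168581 and 121251, and EryP cells at 34266 and 30261. The part of free RNA in these contrasts was not tested, and none was subtracted on the non-globin scale. Among EryP cells, the list took 16.3% (16.1 to 16.6) of non-globin UMIs in the group with the least globin and 11.96% (11.6 to 12.3) in that with the most in library 1, and 18.7% (18.4 to 18.9) against 14.2% (13.8 to 14.6) in library 2. Of 34 proteasome genes, 0 were called higher and 3 lower (4 without the 14 cells), with medians of -0.62 and -0.46. In CPM over all UMIs 31 of the 34 were lower, and relative to Ery 5 and Ery 6, 1 was higher and 2 lower.

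Genes against oxidative damage and of survival split by member. Of 14 antioxidant and heme breakdown genes, 3 were called higher, namely Prdx1 (1505 and 1744 against 484 and 504), Cat, catalase (735 and 742 against 318 and 298) and Gclm (2894 and 2355 against 1304 and 1104). Blvra, a biliverdin reductase, was called lower, on 2 and 6 EryP UMIs (2 and 3 without the 14 cells). Gpx1 and Prdx2, peroxidases and among the most abundant genes outside globin, were not called. In CPM over all UMIs, 0 of the 14 were higher and 5 lower. Relative to Ery 5 and Ery 6 the median was -0.0049 and 0.16, with Cat at 0.940 and 1.02 of their level, and of the 3 genes only Prdx1 was called higher there. Of 4 Bcl2 family genes tested, 2 were called higher: Bcl2l1, the survival factor of erythroblasts downstream of the erythropoietin receptor, at 694 and 777 against 291 and 307, and Bnip3 at 233 and 214 against 45.3 and 40.3; neither was called higher in CPM over all UMIs. Bcl2l1 stood at 855 and 891 in Ery 5 and Ery 6 and was not called against them, whereas Bnip3 was. Epor itself stood at 219 and 196 against 275 and 298.

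Of 9 stress genes tested, 2 were called higher and 0 lower, with a median of -0.028 and 0.13; in CPM over all UMIs 2 were higher and 6 lower, and relative to Ery 5 and Ery 6, 3 were higher and 1 lower. Trib3, a pseudokinase target of Atf4, stood at 412 and 303 against 16.7 and 14.6, 24.6-fold (19.2 to 31.4) and 20.7-fold (14.9 to 28.2) higher, with UMIs in 69 of 170 and 35 of 118 EryP cells. Hspa1a, an inducible heat shock protein, stood at 197 and 320 against 3.19 and 3.94, but its 44 and 54 UMIs came from only 6 and 5 EryP cells, 31 and 21 of them from a single cell. Hspa1a also shares sequence with its copy Hspa1b, so its count is uncertain. Hspa8, its constitutive relative, and Hsp90aa1, of the HSP90 family, were not called. H19, an imprinted long noncoding RNA of fetal tissues, stood at 511 and 587 against 68.5 and 68.8 and was the only tested gene of its list.

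Genes of nuclear condensation and enucleation were called lower in 2 of 11 cases (Lmna and Diaph3) and higher in 0. Of the 11, 4 were lower without the 14 cells of mostly adult globin, and against Ery 5 and Ery 6 the median was -1.36 and -1.06, with 6 lower. In CPM over all UMIs, 9 were lower. Xpo7, a nuclear exporter that erythroblasts induce late, stood at 421 and 427 against 297 and 275 in Eryb cells and 1078 and 981 in Ery 5 and Ery 6.

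The 10 genes outside the lists that were lowest in EryP cells were near 0 there. Each had at most 7 UMIs in all EryP cells of a library, and some serve replication, as do Donson, a fork protein, and Hist1h1a and Hist1h1b, linker histones made in S phase. Fam111a, which acts at replication forks, had 1 UMI in either library, or 4.48 and 5.93 against 130 and 127. Hist1h1b stood at 31.4 and 35.6 against 325 and 315, and all 6 of its UMIs in library 2, like the 1 of Fam111a, came from the 11 cells of mostly adult globin. With so few UMIs, the upper bounds of the ratios reached 0.193 and 0.260 for Fam111a. Polyadenylated capture underlies these counts, and most replication-dependent histone messages lack a poly(A) tail.

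Markers of other liver cells were scarce and near Eryb levels in CPM over all UMIs. The sums that follow are on that scale. Hepatoblast markers summed to 60.5 and 16.6 CPM in EryP cells and 51.8 and 21.0 in Eryb cells, led by Afp. Monocyte and Kupffer cell markers summed to 28.2 and 14.5 against 27.6 and 12.8, led by Lyz2, while Cd5l, Fcgr1 and C1qb were at 0 in EryP cells. Megakaryocyte markers summed to 24.0 and 13.5 against 32.0 and 21.1, led by Pf4, with Gp1bb at 0. Granulocyte markers summed to 111 and 63.2 against 131 and 71.3, led by S100a9 in library 1 and S100a8 in library 2, with Ly6g at 0; S100a8 and S100a9 were called higher in non-globin CPM without the 14 cells of mostly adult globin. Endothelial markers had 2 and 1 UMIs in all EryP cells, with Cdh5, Kdr and Emcn at 0. Progenitor markers had 3 and 2 UMIs, and Kit, the receptor of stem cell factor, had 0 in both libraries, which allows up to 3.13 and 3.11 CPM. In non-globin CPM, each sum was higher in EryP than in Eryb cells, with 260 and 94.9 against 81.9 and 51.5 for hepatoblasts. Their part in the results above was not tested.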

How the data were processed

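Single-cell RNA-seq was carried out on 2 technical replicate libraries of 1 E12.5 liver. The authors deposited raw UMI counts per gene, in a matrix of every barcode and another of called cells, with a table of cell names, clusters, phases and cell types that holds no cell under 200 genes. The submitters' processing notes name Cell Ranger 2.1.1, Seurat 3.2.0 and the mm10 genome; the header of the library 1 matrix names software version 3.0.0. Cells were joined to the matrices by barcode. From the deposited counts, UMIs were summed per cell type and library and divided by all UMIs or by all but those of 10 globin genes. A count of 0 was set to 3 for ratios. Genes with a mean of at least 20 counts per 1000000 UMIs (CPM) were called at 2-fold or more in both libraries. Intervals for counts were exact Poisson, for shares Clopper-Pearson and for ratios exact conditional (scipy 1.17.1, numpy 2.4.6, Python 3.11.15), at 95%. No p-value was computed, since there is 1 group.

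Depth was 24261794 and 35485868 UMIs for Eryb and 958118 and 965527 for EryP cells. On counts simulated at these depths (2903 genes run, 200 changed), the fold rule on all UMIs found 50 of 50 genes raised 4-fold, 49 of 50 lowered to 0.25, 42 of 50 raised 2.5-fold and 44 of 50 lowered to 0.4, and called 0 of 2703 unchanged genes. Both cell types were drawn as Poisson counts from 1 mean Eryb profile, which also set the gene filter. The simulation thus lacked the higher globin share of EryP cells and any library difference. Its rates do not carry over to the calls in non-globin CPM. Genes named in the text are all globins and markers, the 2 highest and 2 lowest tested members of each list and any member described, the 10 highest and 10 lowest called genes outside the lists (without Gm and Rik models and 56 symbols that name more than 1 gene) and the 10 most abundant genes. The members and lists were chosen with earlier results of these data known. Gene spans are from GENCODE vM21 (GRCm38). Some genes that the rule names are not reported here.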

Additional observations from a re-analysis of the deposited data

Results flagged for a closer look

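Barcodes outside the deposited cell table also carried embryonic globin. Of 221 such barcodes with at least 1000 UMIs in library 1, 7 (3.17%, Clopper-Pearson 95% interval 1.28 to 6.42) drew over 50% of their globin UMIs from Hba-x, Hbb-bh1 and Hbb-y. In library 2 the count was 77 of 3461 (2.22%, 1.76 to 2.77). They were flagged because the comparisons above do not use these barcodes and because the embryonic share of globin in barcodes with 1 to 50 UMIs was 7.31% and 3.56%, where theirs had a median of 80.6% and 58.7%. The 7 barcodes of library 1 had been called as cells, each with under 200 genes, the minimum of the table, and held a median of 84.9% globin. None of the 77 in library 2 had been called as a cell. They held 1017 to 4328 UMIs, below the shallowest kept cell (4387), with a median of 487 genes and 49.4% globin. Which of them are intact cells was not tested.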

How the results depend on the processing

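No paired analysis was possible because the design has a single group. In non-globin CPM, 147 genes were higher and 367 lower in EryP cells, where in CPM over all UMIs 41 were higher and 1628 lower, so the higher genes made up 28.6% of calls in place of 2.46%; leaving out mitochondrial UMIs too gave 139 and 382. In CPM over all UMIs, a minimum of 50 CPM gave 18 and 782 and a minimum of 5 gave 91 and 3336. On the same scale, no minimum gave 258 and 3856, and a fold of 4 gave 21 and 614. Against Ery 5 and Ery 6, in CPM over all UMIs, 587 genes were lower, and 46 higher. Leaving out replicate 1 or 2, also in CPM over all UMIs, gave 43 to 47 higher and 1667 to 1828 lower genes. On that scale, per-cell means, subtraction of 10% free RNA and the depth minimum of library 2 each kept both counts within 1.5-fold of 41 and 1628. So did leaving out cells of mostly adult globin, the only 1 of these settings also given above in non-globin CPM.

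EryP cells were 1.68% of cells with at least 500 genes, and 2.33% to 3.10% without either replicate. The ratio of genes per cell in EryP to Eryb at equal depth was 0.477, and 0.625 against Ery 5 and Ery 6. Barcodes outside the table with mostly embryonic globin numbered 84, and 139 from 500 UMIs, 41 from 2000 UMIs, 171 at over 25% embryonic, and 7 to 77 without either replicate. The pooled embryonic share of globin was 68.9%, and 58.4% to 80.3% without either replicate.

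Between CPM over all UMIs and non-globin CPM, the log2 ratio changed sign for 25 of 105 named genes outside globin, and with Ery 5 and Ery 6 in place of Eryb for 13 of 113, globins included. Of those called in CPM over all UMIs, it did so for Hsp90aa1 (0.0021) and Hspa8 (0.81) against Ery 5 and Ery 6 and for mt-Co1 (0.13) in non-globin CPM. The causes were not tested. Depth limits genes with few EryP UMIs most, such as Sox6, Bcl11a and Fam111a.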
